A study of Mus musculus with 8 samples.

Results

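Mitochondrial ribosomal proteins were taken as every row of the deposited expected-count table whose symbol begins with Mrpl or Mrps followed by a number. The rule uses names only and found 77 of the 21879 genes in the table, 48 with large subunit symbols (Mrpl) and 29 with small subunit symbols (Mrps). The series measured poly(A)-selected RNA in TCMK-1, a transformed mouse kidney tubular epithelial cell line. In the knockdown group the cells carried an shRNA against smgGDS, the protein made by Rap1gds1, which promotes nucleotide exchange on several small GTPases. In the control group they carried a control shRNA. Both groups had received 20 µM cisplatin, a chemotherapeutic that forms platinum adducts on DNA and is toxic to kidney tubules, and each had 4 libraries. The comparison is thus one of knockdown and control under the drug. The series holds no library without cisplatin, so the effect of the drug itself cannot be read from these data. Whether the 4 libraries per group represent independent cultures or clones is not stated in the labels. Each shRNA may therefore stand for a single line, and the p-values measure only how far these libraries vary, which may be technical.

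The mitochondrial ribosome translates the few proteins encoded by mitochondrial DNA, all of them subunits of the respiratory chain and ATP synthase. Its ribosomal RNAs come from mitochondrial DNA, whereas its proteins are encoded in the nucleus, made in the cytosol and imported. Some of these proteins have bacterial homologues and others are specific to mitochondria. Tubular epithelium in the kidney is rich in mitochondria and depends on their respiration. Transcripts of mitochondrial DNA itself were not analysed here.

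Total expected counts lay between 12746051 and 14280962 per knockdown library and between 11560977 and 16059158 per control library. Rap1gds1 stood at 2.63 ± 0.19 CPM in the knockdown and 16.2 ± 0.80 CPM in controls (SD, n = 4 each), where CPM are counts scaled to a common library size with TMM factors. On the leading principal component, which carried 29.2% of the variance, knockdown replicates 1 to 3 lay between -9.58 and -8.86 and knockdown replicate 4 at -20.9, outside their range, with the controls between 8.86 and 16.5. Epithelial markers were low for a labelled epithelial line: the 10 markers summed to 23.1 to 28.7 CPM in knockdown libraries and 25.1 to 28.3 CPM in control libraries, Cdh1 averaged 0.0792 CPM in the knockdown and 0.148 CPM in controls, and 5 of the 10 passed the filter with 0 called. Of the 7 fibroblast markers, all 5 that passed the filter rose, and the list summed to 395 to 451 CPM in the knockdown against 326 to 353 CPM in controls. The 7 leukocyte markers summed to 116 to 129 CPM in the knockdown against 136 to 145 CPM in controls, nearly all from Cd14, Cd68 and Cd79a, with Adgre1 and Cd3e at 0 throughout. The 6 endothelial markers summed to 11.9 to 13.8 CPM in the knockdown against 7.61 to 9.58 CPM in controls, almost all of it Flt1. The part of these shifts in the results below was not tested.

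For 67 of the 77 mitochondrial ribosomal protein mRNAs, the 95% interval of the log2 fold change between knockdown and control cells stayed within 0.32 of 0. All 77 passed the filter on low counts, and 8 were called at an adjusted p under 0.05 (edgeR quasi-likelihood test, Benjamini-Hochberg adjustment over 11576 genes). Mrpl13, Mrpl3 and Mrps6 rose, and Mrpl45, Mrpl32, Mrps31, Mrps11 and Mrps30 fell. The members' share of 10.4% called stood against 20.2% of all tested genes, or 11.1% higher and 9.15% lower in the knockdown. Log2 fold changes are differences of the knockdown from the control. Over the 77 members they had a median of -0.01 and an interquartile range of -0.06 to 0.04. Over all 11576 tested genes the median was -0.0033 and the interquartile range -0.13 to 0.12, a wider spread. The members also had a higher median level, 52.3 CPM against 19.0 CPM for all tested genes. The part of that level in the narrower spread was not tested. The limit of 0.32 was chosen after the values were seen, and 61 of the 67 members within it were not called. The share of all tested genes with an interval within 0.32 of 0 was not computed. In bulk RNA, fewer cells carrying a transcript and less of it per cell cannot be told apart.

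**Figure D1:**
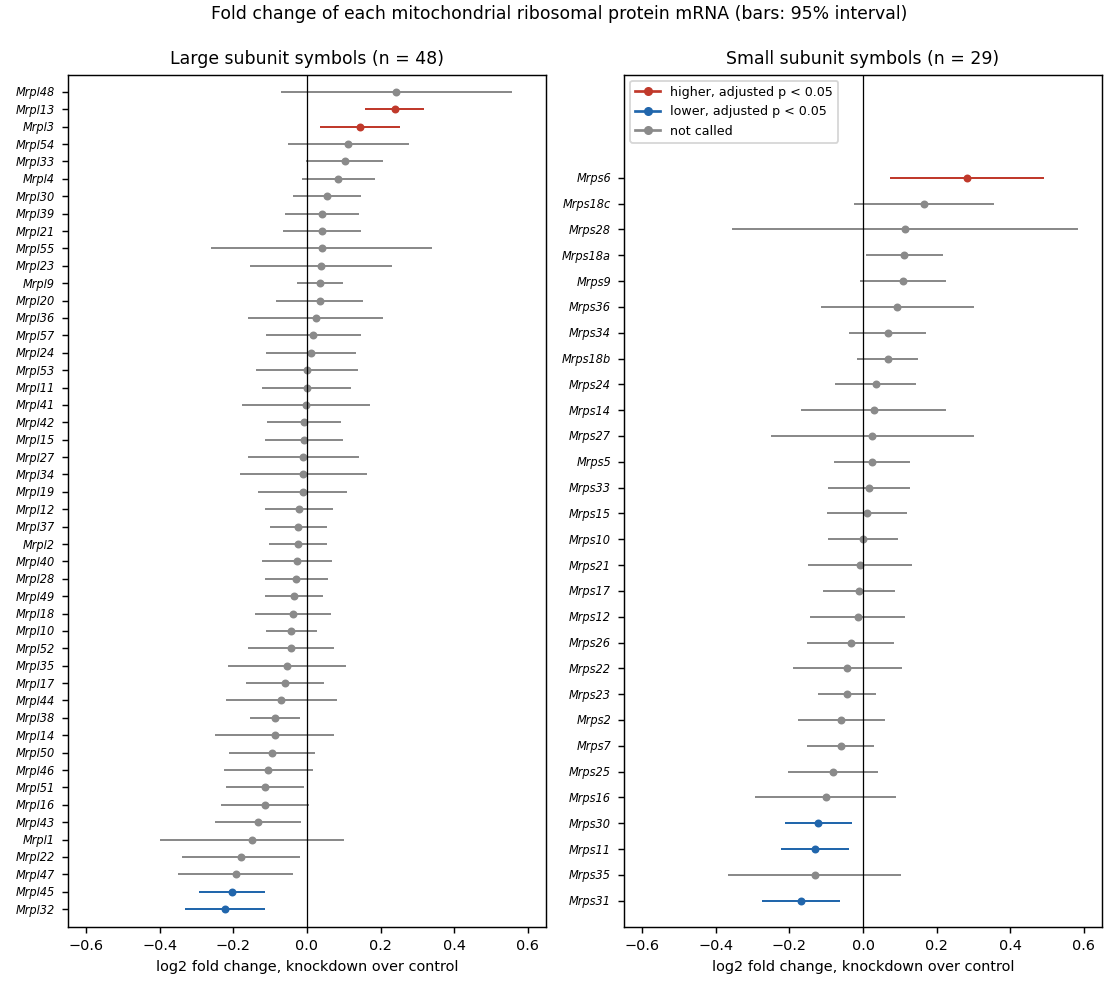
Log2 fold change of every mitochondrial ribosomal protein mRNA, knockdown over control (x axis), with one gene per line, large subunit symbols in the left panel (n = 48) and small subunit symbols in the right panel (n = 29). Points are edgeR estimates and bars 95% intervals, red for the 3 called higher, blue for the 5 called lower and grey for the 69 not called, most of which lie close to 0.

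Taken by subunit, 2 of 48 large subunit members rose, 2 fell and 44 were not called, around a median log2 fold change of -0.02. Among 29 small subunit members 1 rose, 3 fell and 25 were not called, with a median of 0.00. Names and structure differ for a few members: Mrps30 and Mrps18a sit in the large subunit of the assembled ribosome, and Mrps36 is now known as a component of the alpha-ketoglutarate dehydrogenase complex. By structure, the large subunit held 50 members (2 higher, 3 lower), and the small subunit 26 members with 1 higher and 2 lower. Of the 46 members with a bacterial homologue, 3 rose and 2 fell, or 10.9% called, with a median of -0.01. Of the 30 members specific to mitochondria, 0 rose and 3 fell, or 10% called, with a median of -0.03. The difference between these origins was not tested. Beside these counts by subunit, structure and origin, 20.2% of all tested genes were called, 11.1% higher and 9.15% lower in the knockdown.

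The intervals show how small a difference these libraries could have held. The median standard error of a member's log2 fold change was 0.056, and 61 of the 69 members not called had a 95% interval that stayed within 0.32 of 0 on the log2 scale, a limit chosen after the values were seen. Those 61 comprised 39 large and 22 small subunit members. The 8 members not called whose interval reached past that limit were Mrpl1, Mrpl22, Mrpl47, Mrpl48, Mrpl55, Mrps18c, Mrps28 and Mrps35, all with fewer counts than most members. For these a change of that size was not excluded by the interval.

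**Figure D2:**
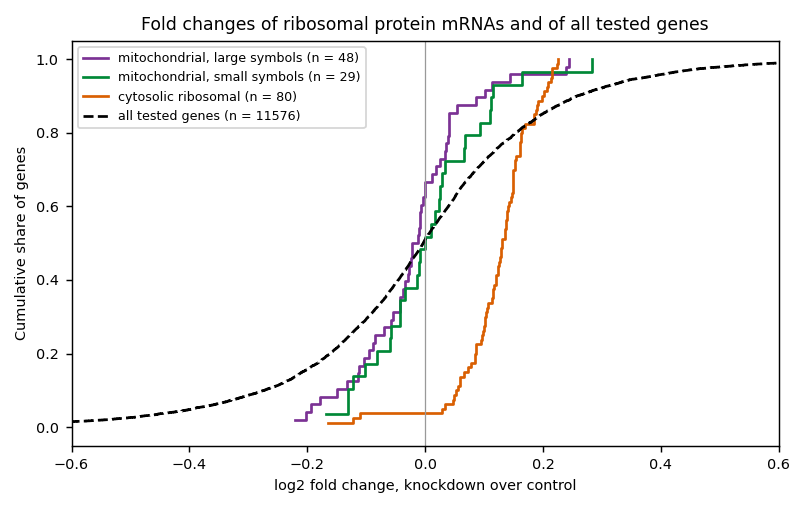
Cumulative share of genes (y axis) against log2 fold change, knockdown over control (x axis), for large (n = 48) and small (n = 29) subunit members, cytosolic ribosomal protein genes (n = 80) and all tested genes (n = 11576). Both mitochondrial curves climb steeply near 0, while the cytosolic curve climbs to the right of 0 around its median of 0.13.

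Mrpl13, a large subunit protein with a bacterial homologue, had the smallest adjusted p of the members. Its mRNA stood at 159, 159, 150 and 155 CPM in knockdown replicates 1 to 4 and at 129, 128, 134 and 139 CPM in control replicates 1 to 4. Every knockdown library lay above every control library. The means were 156 ± 4.4 CPM in the knockdown and 132 ± 4.9 CPM in controls (SD, n = 4 each), a log2 fold change of 0.24 (SE 0.038, edgeR adjusted p = 8.22e-06), or 118% of control with a 95% interval of 112% to 124%. The gene (ncbi_68537, chr15:55534095-55557312 in GRCm38.p6) shares 330 exonic bases with Mtbp on the opposite strand in the GENCODE M21 annotation. Mtbp, which encodes an MDM2-binding protein, averaged 54.3 CPM in the knockdown and 47.1 CPM in controls (edgeR adjusted p = 0.00884, log2 fold change 0.21, SE 0.059). Whether counting used strand is not stated, and reads in the shared bases cannot be told apart.

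Mrpl3, a core protein that reaches towards the catalytic centre of the large subunit, was also higher in the knockdown, by a smaller margin (ncbi_94062, chr9:105053268-105077466). It had 58.4, 60.1, 63.2 and 56.3 CPM in knockdown replicates 1 to 4 and 53.7, 53.1, 53.1 and 55.7 CPM in control replicates 1 to 4. The lowest knockdown library, replicate 4, and the highest control library, replicate 4, were close but did not overlap. Its log2 fold change was 0.14 (SE 0.052, edgeR adjusted p = 0.0437), and the call was lost in 11 of 19 alternative analyses, with adjusted p between 0.0238 and 0.242. Among these, leaving out any 1 of knockdown replicates 1 to 3 or control replicates 1 to 3 gave edgeR adjusted p values of 0.0603 to 0.161.

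Mrps6, a small subunit protein with a bacterial homologue, showed the largest fold change of the 77, at a low level (ncbi_121022, chr16:92058336-92112227). It had 14.4, 13.6, 12.7 and 14.4 CPM in knockdown replicates 1 to 4 and 13.0, 10.4, 10.8 and 11 CPM in control replicates 1 to 4. Control replicate 1 lay within the range of the knockdown libraries, so the groups overlapped. Its log2 fold change was 0.28 (SE 0.10, edgeR adjusted p = 0.0437). Its counts were not whole in 3 libraries, so reads may be shared with other genes, and the call was lost in 11 of 18 alternative analyses. In GENCODE M21 the gene overlaps the coding genes Gm49711 and Slc5a3 on the same strand. Leaving out knockdown replicate 1, 2 or 4 or control replicate 2, 3 or 4 gave edgeR adjusted p values of 0.0652 to 0.129.

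Mrpl45, the large subunit protein that anchors the mitochondrial ribosome to the inner membrane near the exit tunnel, fell in the knockdown (ncbi_67036, chr11:97314923-97329920). It had 116, 106, 113 and 102 CPM in knockdown replicates 1 to 4 and 127, 131, 126 and 119 CPM in control replicates 1 to 4. All knockdown libraries lay below all control libraries. The means were 109 ± 6.6 CPM in the knockdown and 126 ± 4.9 CPM in controls (SD, n = 4 each), 86.9% of control with a 95% interval of 81.8% to 92.3% (log2 fold change -0.20, SE 0.043, edgeR adjusted p = 0.000489).

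Mrpl32, a large subunit protein whose precursor is cut by the m-AAA protease of the inner membrane before it joins the ribosome, fell by the largest amount of the called members (ncbi_75398, chr13:14610301-14613037). It had 57.8, 52.5, 54.5 and 58.4 CPM in knockdown replicates 1 to 4 and 61.9, 64.0, 69.6 and 65 CPM in control replicates 1 to 4. The groups did not overlap, with knockdown replicate 4 nearest to the controls. The log2 fold change was -0.22 (SE 0.053, edgeR adjusted p = 0.00167), or 85.8% of control with a 95% interval of 79.7% to 92.3%. Mrpl32 and Psma2, which encodes a subunit of the 20S core of the proteasome, are transcribed away from each other with starts 75 bases apart in GENCODE M21. Psma2 was higher in the knockdown, at 171 CPM against 159 CPM in controls (log2 fold change 0.11, SE 0.036, edgeR adjusted p = 0.0316). This pair was singled out after its values were seen, and the difference between its 2 fold changes was not tested.

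Sequence upstream of the called members is shown for Mrpl45, Mrpl32 and Mrpl3, which had the smallest adjusted p in each direction among those found in the promoter table. The letters come from RefSeq (GRCm38.p6), read 5′ to 3′ on the strand of the gene, with bases that GENCODE M21 places in an exon left out. The Mrpl45 stretch is chr11:97315466-97315715 on the plus strand and ends next to the start in the promoter table, which lies inside the span of the gene. Its capitals mark 2 matches to the letters searched for the nuclear respiratory factor NRF1, which are GCGC, any base, then TGCGC, both read on the opposite strand.
Mrpl45: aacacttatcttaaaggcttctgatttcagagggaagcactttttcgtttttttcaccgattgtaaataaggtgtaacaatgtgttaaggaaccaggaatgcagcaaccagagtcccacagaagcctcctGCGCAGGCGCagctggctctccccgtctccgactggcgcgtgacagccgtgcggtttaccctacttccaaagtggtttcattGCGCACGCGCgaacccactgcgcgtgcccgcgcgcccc

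The Mrpl32 stretch is chr13:14613166-14613239 on the minus strand, the span between the Mrpl32 and Psma2 starts. Its capitals mark 1 match to CCAAT, the letters searched for the CCAAT-binding factor NF-Y, on the opposite strand. The exonic bases left out of the 250-base window held 1 further match to the NRF1 letters and 1 to GGGCGG, searched for SP1.
Mrpl32: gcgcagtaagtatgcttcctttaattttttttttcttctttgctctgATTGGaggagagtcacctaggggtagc

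The Mrpl3 stretch is chr9:105053018-105053238 on the plus strand. Its capitals mark 2 matches to CCAAT, again read on the opposite strand. The exonic bases left out of its 250-base window held 1 match to CCGGAAG, searched for ETS factors.
Mrpl3: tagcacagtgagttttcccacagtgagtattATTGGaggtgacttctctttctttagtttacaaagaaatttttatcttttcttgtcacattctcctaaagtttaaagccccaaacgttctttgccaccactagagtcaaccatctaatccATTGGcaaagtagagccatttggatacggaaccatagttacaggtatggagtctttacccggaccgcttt

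Over the 250 bases upstream of the start, 68 of the 77 members matched the promoter table, and 9289 tested genes did. Letters were searched on both strands, and matches of different motifs may overlap. The NRF1 letters stood in 14.7% of the members' windows, against 8.75% for all tested genes and 3.86% of all 27025 promoters in the table. The letters CCGGAAG, bound by ETS factors such as GABP, stood in 23.5% of the members, against 14.6% of tested genes and 7.05% of all promoters. The YY1 letters AANATGGCG stood in 2.94% of the members, against 2.19% of tested genes and 1.12% of all promoters. CCAAT stood in 36.8% of the members, against 37.3% of tested genes and 34.5% of all promoters, and the SP1 letters GGGCGG in 48.5%, against 60.7% of tested genes and 32.9% of all promoters. Median GC content of the windows was 58.4% for the members and 60% for all tested genes. Such matches describe letters and are no evidence of binding.

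The 3 members with small subunit symbols that fell stood at 89.0% to 91.9% of control. They were Mrps31 (ncbi_57312, chr8:22410449-22429669), Mrps11 (ncbi_67994, chr7:78783131-78792988) and Mrps30 (ncbi_59054, chr13:118380110-118387252), with coordinates of GRCm38.p6 as for the other members. Mrps31, a protein of the small subunit found only in mitochondria, had 57.9, 63.9, 61.0 and 60.6 CPM in knockdown replicates 1 to 4 and 65.1, 73.5, 67.8 and 66.8 CPM in control replicates 1 to 4. Each knockdown library lay below each control library, although knockdown replicate 2 and control replicate 1 were close. The log2 fold change was -0.17 (SE 0.051, edgeR adjusted p = 0.0145), or 89.0% of control, and the edgeR adjusted p was 0.0653 without knockdown replicate 1 and 0.0972 without control replicate 2.

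Mrps11, a protein of the platform of the small subunit with a bacterial homologue, had 82.0, 83.1, 82.7 and 76.7 CPM in knockdown replicates 1 to 4 and 89.0, 88.4, 89.9 and 87.9 CPM in control replicates 1 to 4. The controls were tightly grouped, and all lay above the knockdown libraries, of which replicate 4 was the lowest. The log2 fold change was -0.13 (SE 0.045, edgeR adjusted p = 0.0314), or 91.4% of control. Leaving out knockdown replicate 1 or 4 or control replicate 1, 2 or 3 gave edgeR adjusted p values of 0.0505 to 0.105. Mrps11 overlaps the large subunit member Mrpl46 head to head on the opposite strand, with 0 shared exonic bases in GENCODE M21. Mrpl46 averaged 44.2 CPM in the knockdown and 47.4 CPM in controls (log2 fold change -0.10, SE 0.059, edgeR adjusted p = 0.221).

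Mrps30, which despite its name belongs to the large subunit, had 95.8, 92.1, 94.5 and 89.7 CPM in knockdown replicates 1 to 4 and 99.2, 99.3, 108 and 98.7 CPM in control replicates 1 to 4. The groups did not overlap, and control replicate 3 stood above the other controls. Its log2 fold change was -0.12 (SE 0.044, edgeR adjusted p = 0.0416), or 91.9% of control. Without control replicate 3 it was -0.09 with an edgeR adjusted p of 0.194, and without knockdown replicate 2, 3 or 4 or control replicate 1 or 2 the adjusted p was 0.0505 to 0.103. The gene shares 601 exonic bases with B430218F22Rik on the opposite strand.

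**Figure D3:**
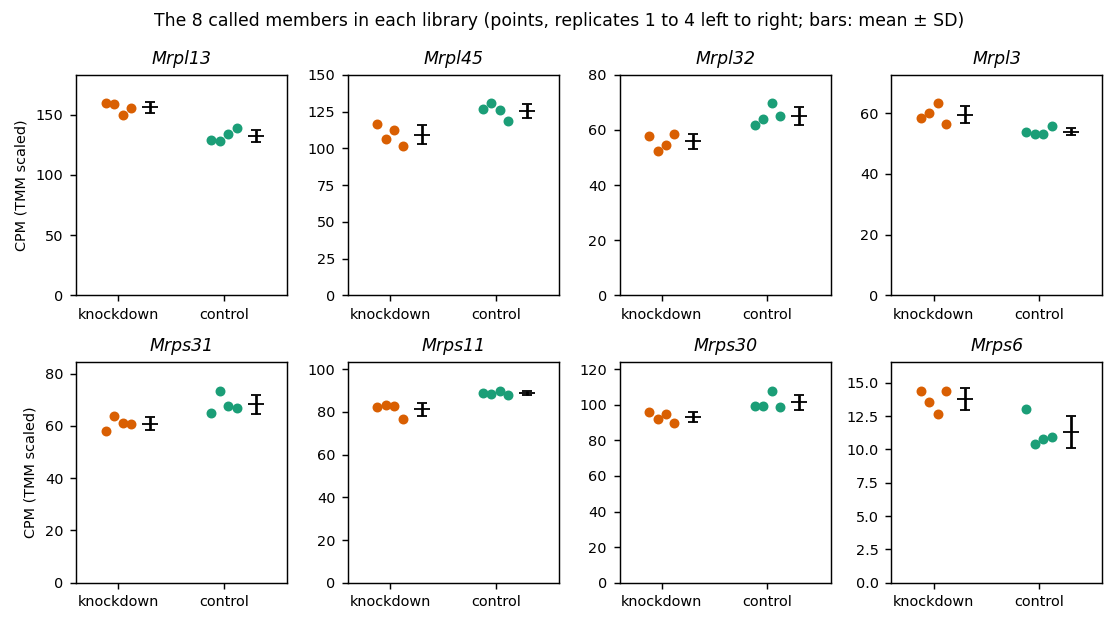
TMM-scaled CPM (y axis, starting at 0) of the 8 called members in knockdown libraries (orange, left) and control libraries (green, right), with replicates 1 to 4 from left to right and black bars for mean ± SD (n = 4). The groups are separate for every gene except Mrps6, where control replicate 1 lies at 13.0 CPM among the knockdown libraries, and each gap is small against the level.

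Separation without a call, or the reverse, occurred in a few members. Groups did not overlap for 10 members, 3 higher and 7 lower in the knockdown, against 21.1% of all tested genes, 11.5% higher and 9.61% lower. Besides 7 called members these were Mrpl33, Mrpl47 and Mrpl51. Mrpl33 averaged 58.1 CPM in the knockdown and 54.1 CPM in controls (log2 fold change 0.10, edgeR adjusted p = 0.159). Mrpl51 averaged 55.8 CPM in the knockdown and 60.4 CPM in controls (log2 fold change -0.11, edgeR adjusted p = 0.115). Both were named after their values were seen.

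Mrpl47, which sits beside the exit tunnel, had 22.5, 20.0, 22.3 and 21.6 CPM in knockdown replicates 1 to 4 and 23.2, 25.3, 24.4 and 26.2 CPM in control replicates 1 to 4. The groups were separate with a narrow gap between knockdown replicate 1 and control replicate 1. Its log2 fold change was -0.19 (SE 0.076, edgeR adjusted p = 0.0674). The gene overlaps Actl6a and Ndufb5 on the opposite strand and shares 610 exonic bases with opposite-strand coding genes in GENCODE M21. Mrpl38, a mitochondria-specific protein on the outside of the large subunit and the most abundant member per length, had 394, 359, 405 and 379 CPM in knockdown replicates 1 to 4 and 410, 400, 419 and 403 CPM in control replicates 1 to 4. Knockdown replicate 3 lay among the controls. The log2 fold change was -0.09 (SE 0.032, edgeR adjusted p = 0.0536), and the member passed the threshold in 11 of 19 alternative analyses.

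Mrpl43 and Mrpl22 were likewise lower on average but not called. Mrpl43, whose counts had fractions in all 8 libraries and which shares 385 exonic bases with Twnk, the gene of the mitochondrial DNA helicase, had 55.0 ± 3.4 CPM in the knockdown and 60.4 ± 4.4 CPM in controls (SD, n = 4 each; edgeR adjusted p = 0.0897). Mrpl22, which lines the exit tunnel, had 26.6 ± 1.0 CPM in the knockdown and 30 ± 4.0 CPM in controls (SD, n = 4 each; edgeR adjusted p = 0.100). Among the controls of Mrpl22, replicates 2 and 3 were high at 34.6 and 32.3 CPM, and replicates 1 and 4 lay at 27.0 and 26.3 CPM, within the knockdown range.

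The 3 Mrps18 paralogues, which occupy different positions in the ribosome, all had a fold change above 0 and none was called. Mrps18a averaged 64.6 ± 3.0 CPM in the knockdown and 59.7 ± 2.0 CPM in controls (SD, n = 4 each), a log2 fold change of 0.11 (edgeR adjusted p = 0.117). The log2 fold changes were 0.17 for Mrps18c (edgeR adjusted p = 0.225) and 0.07 for Mrps18b (edgeR adjusted p = 0.252). Mrps9, a core protein of the small subunit head, stood at 0.11 (edgeR adjusted p = 0.179), and Mrps36 at 0.09 (edgeR adjusted p = 0.581).

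Levels per length differed far more between members than between groups. The mean of the authors' FPKM over the 8 libraries ranged from 3.68 to 281, a 76.2-fold span with a median of 44.5. Mrpl38 was highest at 267 ± 13 FPKM in the knockdown and 295 ± 4.9 FPKM in controls (SD, n = 4 each). Mrpl9 followed with 205 ± 5.1 FPKM in the knockdown and 208 ± 2.6 FPKM in controls, and Mrpl13 with 194 ± 6.1 FPKM in the knockdown and 171 ± 5.1 FPKM in controls (SD, n = 4 each). On this scale the knockdown libraries of Mrpl38, at 251 to 281 FPKM, all lay below its controls, at 289 to 301 FPKM, unlike on CPM. FPKM carry no TMM factors, and the median log2 fold change over all tested genes on FPKM was -0.05. The part of that shift in the separation of Mrpl38 was not tested. In the small subunit Mrps18b, at a mean of 117 FPKM, Mrps23, at 110 FPKM, and Mrps11, at 82.7 FPKM, were highest.

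At the low end, Mrps28 averaged 3.75 ± 1.2 FPKM in the knockdown and 3.62 ± 0.80 FPKM in controls (SD, n = 4 each), with only 25 to 49 counts per library. Mrps27, a pentatricopeptide repeat protein, averaged 3.77 FPKM over all libraries, Mrpl1, of the mobile stalk of the large subunit, 3.83 FPKM, and Mrpl55 5.83 FPKM. Libraries of Mrps28, Mrps27 and Mrpl1 overlapped within 2.52 to 4.85 FPKM, and those of Mrpl55 ran from 4.76 to 6.58 FPKM. Mrpl35 at 6.85 FPKM and Mrps25 at 7.02 FPKM were low per length but had 276 to 482 and 504 to 723 counts per library, with effective lengths of 3715 and 6079 bases. The called members were spread over the range of levels, from Mrps6 at 16.0 FPKM to Mrpl13 at 183 FPKM.

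**Figure D4:**
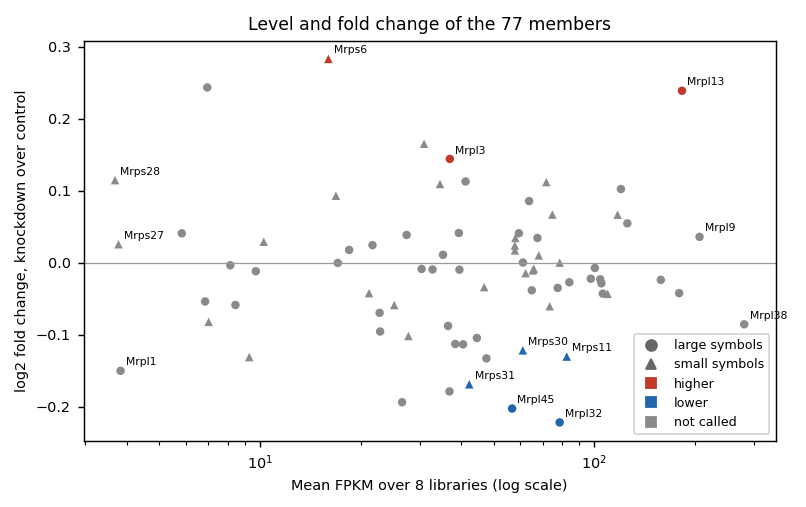
Mean FPKM over the 8 libraries (x axis, log scale) against log2 fold change, knockdown over control (y axis), for the 77 members, circles for large and triangles for small subunit symbols. The called members (red higher, blue lower) lie between 16.0 and 183 FPKM, and the most abundant member, Mrpl38 at 281 FPKM, was not called.

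The summed levels of the members overlapped between the groups when scaled with TMM. Large subunit members summed to 3698, 3600, 3692 and 3557 CPM in knockdown replicates 1 to 4 and to 3679, 3666, 3720 and 3689 CPM in control replicates 1 to 4. Knockdown replicates 1 and 3 lay within the control range, and replicates 2 and 4 lay below it. Small subunit members summed to 1551, 1532, 1550 and 1512 CPM in knockdown replicates 1 to 4 and to 1547, 1542, 1586 and 1528 CPM in control replicates 1 to 4. Knockdown replicate 4, the library that stood apart on the leading component, had the lowest sum for both subunits.

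As a share of the raw library total the same sums were separate, at 0.346% to 0.363% in the knockdown and 0.373% to 0.378% in controls for the large subunit, and at 0.147% to 0.152% in the knockdown and 0.154% to 0.160% in controls for the small subunit. With library totals in place of TMM factors, the large subunit had 1 member called higher and 10 lower, and the small subunit 0 higher and 3 lower, against 23.5% of all tested genes, 6.62% higher and 16.9% lower. Medians of the log2 fold change were then -0.06 for all tested genes, -0.07 for the large subunit and -0.06 for the small subunit. On FPKM, 1 large member was higher and 9 lower, and 1 small member was higher and 3 lower, against 18.2% of all tested genes, 5.17% higher and 13% lower. A correction for the trend of counts with transcript length gave 2 large members higher and 6 lower and 0 small members higher and 3 lower, against 20.6% of all tested genes, 10.8% higher and 9.74% lower. DESeq2 gave 1 large member higher and 2 lower and 0 small members higher and 2 lower, against 19.9%, of which 11.2% higher and 8.76% lower. At a threshold of 0.01 in edgeR these counts were 1, 2, 0 and 0, against 12.1%, of which 7.13% higher and 5.01% lower. Members were short, with a median effective length of 1060 bases against 2798 bases for all tested genes. Without knockdown replicate 4, large members had 2 higher and 2 lower and small members 0 higher and 1 lower, against 15.7% of all tested genes, 8.85% higher and 6.87% lower.

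Mrpl13, Mrpl45 and Mrpl32 were the members whose call was kept in all 19 alternative analyses. The log2 fold change lay between 0.18 and 0.26 for Mrpl13, between -0.26 and -0.17 for Mrpl45 and between -0.28 and -0.19 for Mrpl32. Of the other called members, Mrps31 lost its call in 3, Mrps11 in 6 and Mrps30 in 8 alternatives. Of the 25 members examined this way, none that was called changed sign.

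**Figure D5:**
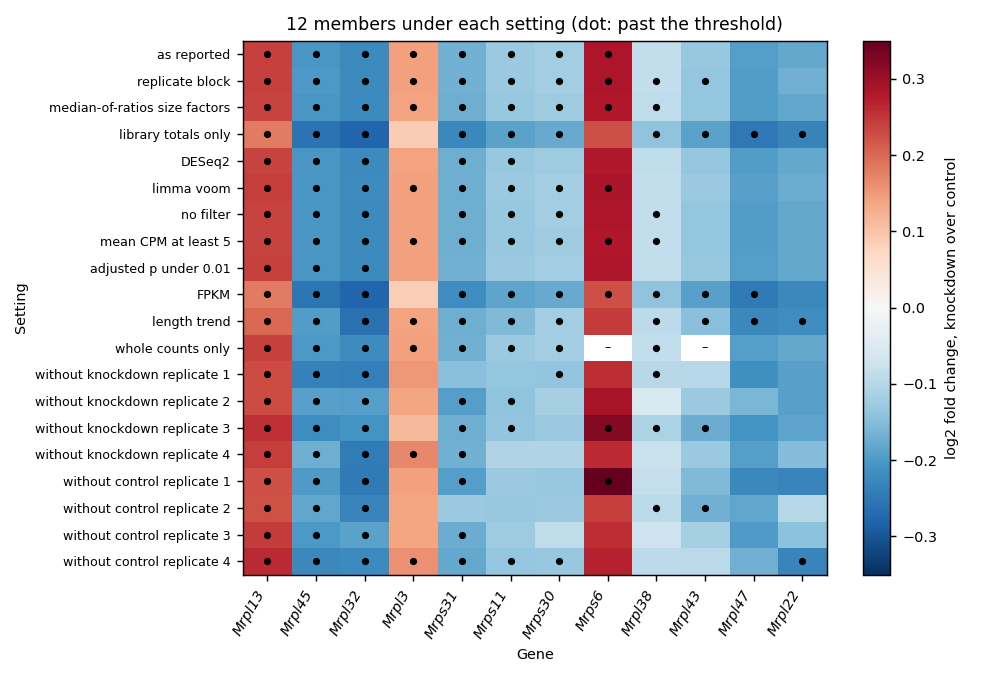
Log2 fold change, knockdown over control (colour), of the 8 called members and of Mrpl38, Mrpl43, Mrpl47 and Mrpl22 (columns) in the main analysis and 19 alternatives (lines of the grid), with a dot where the gene passed the threshold and a dash where it was not tested. Columns Mrpl13, Mrpl45 and Mrpl32 carry a dot throughout, while Mrpl3 kept its call in 8 of the alternatives and Mrps6 in 7.

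Some members lay close to other genes, and the matching shares over all genes were not computed. In GENCODE M21, 26 of the 77 overlapped another coding gene, 23 of them on the opposite strand, and 15 shared exonic bases with an opposite-strand coding gene. A coding gene transcribed away from the member within 1000 bases of its start was found for 19 members, or 24.7%. This count leaves out Mrps11 and Mrpl46, which overlap head to head. Against 11.1% of all tested genes higher and 9.15% lower, 4 of the 18 counted partners that were tested rose and 3 fell. These were Mitd1 beside Mrpl30 (log2 fold change 0.27), Hira beside Mrpl40 (0.30), Fau beside Mrpl49 (0.10) and Psma2 on the higher side, and Ncapd2 beside Mrpl51 (-0.25), Ska3 beside Mrpl57 (-0.25) and Ppp1r10 beside Mrps18b (-0.30) on the lower. Of the members in these 7 pairs only Mrpl32 was itself called. The neighbours were examined after the members' values were seen.

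Of the mitochondrial ribosomal proteins that carry another symbol, none was called. Of Dap3, Chchd1, Aurkaip1, Ptcd3 and Gadd45gip1, 0 of 5 were called by edgeR and 1 had an unadjusted p under 0.05. Among all tested genes these shares were 20.2% and 32%. Dap3, a GTP-binding protein of the small subunit, had 114 ± 4.2 CPM in the knockdown and 112 ± 1.9 CPM in controls (SD, n = 4 each). Chchd1 had 87.0 ± 4.8 and 82.3 ± 8.1 CPM, Aurkaip1 111 ± 2.4 and 111 ± 3.6 CPM, and Ptcd3 67.8 ± 1.6 and 69.0 ± 3.7 CPM in the knockdown and in controls (SD, n = 4 each). Gadd45gip1, at the exit tunnel of the large subunit, had 53.5 ± 0.94 CPM in the knockdown and 57.6 ± 1.9 CPM in controls (SD, n = 4 each), separate but with an edgeR adjusted p of 0.148. Ict1, the peptidyl-tRNA hydrolase built into the large subunit, which RefSeq names Mrpl58, fell outside the naming rule and was not called (log2 fold change 0.07).

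Around the mitochondrial ribosome, 13 genes of 5 supporting lists were called. Over all tested genes 20.2% were called, 11.1% higher and 9.15% lower in the knockdown. Differences between the lists and all tested genes were not tested. Of 28 tested assembly factors, 0 rose and 1 fell: Ybey, an endoribonuclease of ribosomal RNA maturation, at 8.26 ± 1.3 CPM in the knockdown and 11.1 ± 1.1 CPM in controls (SD, n = 4 each; log2 fold change -0.42, edgeR adjusted p = 0.00909). The groups of Ybey overlapped, and its counts were not whole in 6 libraries. None of the 14 mitochondrial translation factors was called by edgeR, and 1 had an unadjusted p under 0.05. Of 22 genes of mitochondrial DNA replication, transcription and RNA processing, 3 rose and 1 fell, or 18.2% called. The RNA-degrading enzyme Pnpt1 rose by 0.33 (SE 0.037, edgeR adjusted p = 5.35e-09), and the single-stranded DNA-binding protein Ssbp1 by 0.25 (SE 0.075, edgeR adjusted p = 0.0126), both on the log2 scale. Polg, the mitochondrial DNA polymerase, named after its value was seen, rose by 0.13 on the log2 scale (edgeR adjusted p = 0.0393), with counts that were not whole in all 8 libraries.

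Polrmt, the RNA polymerase of mitochondria, which the large subunit protein Mrpl12 is known to bind, had 47.7, 50.7, 52.5 and 43.9 CPM in knockdown replicates 1 to 4 and 58.5, 62.7, 56.9 and 62.3 CPM in control replicates 1 to 4. The groups were separate (log2 fold change -0.30, SE 0.057, edgeR adjusted p = 8.41e-05). Mrpl12 itself had 92.0 CPM in the knockdown and 93.4 CPM in controls (log2 fold change -0.02, SE 0.044, edgeR adjusted p = 0.780).

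Of 13 tested regulators of mitochondrial gene expression, 1 rose and 4 fell, or 38.5% called against 20.2% of all tested genes. The NF-Y subunit gene Nfyc had 9.77 ± 0.72 CPM in the knockdown and 18.2 ± 1.9 CPM in controls (SD, n = 4 each; log2 fold change -0.89, edgeR adjusted p = 1.02e-08), and the nuclear receptor Esrra fell by 0.31 on the log2 scale (SE 0.069, edgeR adjusted p = 0.000779). Myc rose by 0.21 on the log2 scale (SE 0.033, edgeR adjusted p = 8.98e-06). Sp1 and Hcfc1 fell by 0.24 and 0.09 and were named after their values were seen. Of 11 chaperones and proteases of the matrix and inner membrane, 27.3% were called. Hspa9 and Hspd1 each rose by 0.09 on the log2 scale (edgeR adjusted p = 0.0122 and 0.0182), and the cochaperone Dnaja3 fell by 0.25 (edgeR adjusted p = 0.00157).

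Side by side with the 3 of 77 mitochondrial ribosomal genes that rose and the 5 that fell, 60 of 80 tested cytosolic ribosomal protein genes rose and 1 fell, with a median log2 fold change of 0.13. Their count was 39 higher and 1 lower with library totals, 32 and 1 on FPKM and 53 and 0 without knockdown replicate 4. Of 76 tested nuclear genes of the respiratory chain and ATP synthase, which the mitochondrial ribosome's products join, 8 rose and 1 fell, with a median of 0.03. With library totals 2 of these rose and 6 fell. Of all tested genes, 11.1% were higher and 9.15% lower in the main analysis, and 6.62% and 16.9% with library totals. On FPKM these shares were 5.17% and 13%, and without knockdown replicate 4 they were 8.85% and 6.87%. The difference between these lists and the mitochondrial ribosomal genes was not tested.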

How the data were processed

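For each of the 8 libraries the authors deposited expected counts and FPKM per gene, per the file headers. Libraries were made with oligo(dT) selection and the NEBNext Ultra kit, per the labels' protocols. The build GRCm38.p6 and, without roles, the programs RSEM, StringTie 1.3.1, HISAT2 2.4, Bowtie2 2.2.8, fastp 0.18.0, edgeR and DESeq2 are named, per the submitters' processing notes. Neither strand setting nor annotation release is stated. Counts were not whole in 2218 genes (tolerance 1e-09), 13 of them members (10 large, 3 small).

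Rounded counts were fitted in edgeR 4.0.16 (R 4.3.3) with TMM factors, filterByExpr, a robust quasi-likelihood fit and group as the only term. The F-test was two-sided, Benjamini-Hochberg adjustment ran over 11576 genes, and the threshold was 0.05. Standard errors come from the fold change and F statistic, and intervals cover 95%. The biological coefficient of variation was 4.29%. A value of 3 counts equals 0.214 to 0.240 CPM in knockdown and 0.181 to 0.257 CPM in control libraries. Replicates differed by more than sampling noise (chi-square per degree of freedom 1.94 to 3.97). Alternatives used DESeq2 1.42.0, voom and log2(FPKM + 0.5) in limma 3.58.1, other scalings and filters, a replicate term, a length trend and each library left out. The procedure was tested on simulated data. Coordinates and sequences came from RefSeq and neighbours from GENCODE M21, both on GRCm38.

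Members and lists were chosen with earlier results of these data known. Named were, per subunit, the 8 members with the smallest adjusted p and the 3 highest and 3 lowest in mean FPKM, Mrps30, Mrps18a, Mrps36, the 5 proteins without an Mrp symbol, Rap1gds1 and up to 3 called genes per supporting list.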

Additional observations from a re-analysis of the deposited data

Results flagged for a closer look

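In 4 of 82 groups of 4 libraries, 1 library stood apart from the other 3 by Dixon's test at the 95% level, which chance gives in about 1 group in 20. Mrps11 was at 76.7 CPM in knockdown replicate 4, against 82.0 to 83.1 CPM in the other knockdown libraries, and its edgeR adjusted p was 0.105 without that library. Mrps30 was at 107.8 CPM in control replicate 3, against 98.7 to 99.3 CPM in the other controls. Mrps36 was at 13.2 CPM in control replicate 4, against 11.2 to 11.3 CPM in the other controls. Hspd1 was at 1440 CPM in control replicate 4, against 1399 to 1403 CPM in the other controls.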

How the results depend on the processing

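The analysis as reported called 2 large members higher and 2 lower, 1 small member higher and 3 lower, 8 members together and 13 genes of the supporting lists. Of all tested genes it called 20.2%. That share was 23.5% with library totals, 18.2% on FPKM, 20.6% with the length trend and 19.9% in DESeq2. It was 15.7% without knockdown replicate 4 and 12.1% at a threshold of 0.01. It was not computed without a filter, with whole counts alone or for the other left-out libraries. Library totals in place of TMM gave 1 large member higher and 10 lower, 0 small members higher and 25 list genes. FPKM gave 1 large member higher, 9 lower and 20 list genes. The length trend gave 6 large members lower and 0 small members higher. DESeq2 and the analysis without a filter each gave 1 large member higher and 0 small members higher, and DESeq2 called 5 members. A threshold of 0.01 left 1 large member higher, 0 small members in either direction, 3 members together and 8 list genes. Whole counts alone gave 0 small members higher, where Mrps6 was not tested. Leaving out each library in turn gave 1 to 2 large members higher and 2 to 4 lower, 0 to 1 small members higher and 0 to 3 lower, 4 to 8 members together and 9 to 14 list genes. The cause of these shifts was not tested. With the replicate block 4 large members were lower, 10 members were called against 8, all 8 shared, and 2660 genes were called against 2344. Deviations of same-numbered libraries correlated at 0.056, 0.083, -0.036 and 0.056, against -0.062 to 0.038 for differently numbered libraries. Knockdown replicates 1, 2 and 4 each correlated best with their own number, and knockdown replicate 3 did not. The correlations were low, and the analysis as reported did not take the numbers as pairs. Whether same-numbered libraries shared a batch was not tested. No called value changed sign in these alternatives. Counting depth limits Mrps28 most, with 25 to 49 counts per library.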
